A study of Rattus norvegicus with 7 samples.

Results

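Heterotrimeric G proteins and the regulators of G protein signaling (RGS proteins) were described in hippocampus and hypothalamus of rats. The members were the genes whose symbol named an alpha (Gna), beta (Gnb) or gamma (Gng, Gngt) subunit or a numbered RGS protein and occurred in the tables of both tissues. They numbered 49 of the 15892 symbols found in both tables, with 15 alpha subunits, 5 beta subunits, 11 gamma subunits and 18 RGS regulators. Gnai3, an inhibitory alpha subunit, was listed in the hippocampus table only, with 16.2, 21.0, 22.8 and 25.9 FPKM in its 4 libraries, and was not counted as a member. Levels are FPKM, that is, sequenced fragments divided by transcript length in kilobases and by library size.

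The 7 libraries came from male Sprague Dawley rats, 2 months old at the start, fed docosahexaenoic acid (DHA), a polyunsaturated omega-3 lipid, for 6 weeks. DHA hippocampus had 4 libraries and DHA hypothalamus 3. Chow-fed rats were not analysed here, and the comparisons are therefore between tissues and among replicates, not between diets. The labels do not say whether replicates, or both tissues, came from separate rats, so the spread between libraries may be in part technical. Sequencing depth was unknown, and the number of libraries limited the precision.

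In the G protein cycle, an activated receptor makes the alpha subunit exchange GDP for GTP and part from the beta-gamma dimer, and both pieces then act on effectors. Alpha subunits fall into classes by effector: the s class activates adenylyl cyclase, the i/o class inhibits it or acts mainly through the released beta-gamma dimer, the q class activates phospholipase C-beta, and the 12 class acts on the cytoskeleton through guanine nucleotide exchange factors. RGS proteins speed the hydrolysis of GTP by alpha subunits and so shorten the signal.

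Promoters are shown for called members at both ends of the range (Gnas and Rgs9, next after Gnal towards hypothalamus, and Rgs14 and Gng7, the farthest towards hippocampus), from 250 bases before to 50 after a gene start in RefSeq, build GRCr8, 5′ to 3′ on the gene's strand. Capitals mark CpG dinucleotides, the sites at which DNA methylation occurs.
Gnas (chr3:183489398-183489697, + strand): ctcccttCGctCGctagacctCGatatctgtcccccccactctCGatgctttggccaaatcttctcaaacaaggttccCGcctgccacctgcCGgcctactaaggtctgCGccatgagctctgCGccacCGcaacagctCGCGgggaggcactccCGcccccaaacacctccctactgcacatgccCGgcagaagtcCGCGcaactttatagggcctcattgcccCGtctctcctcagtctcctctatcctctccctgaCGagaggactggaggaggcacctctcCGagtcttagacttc
Rgs9 (chr10:94770338-94770637, - strand): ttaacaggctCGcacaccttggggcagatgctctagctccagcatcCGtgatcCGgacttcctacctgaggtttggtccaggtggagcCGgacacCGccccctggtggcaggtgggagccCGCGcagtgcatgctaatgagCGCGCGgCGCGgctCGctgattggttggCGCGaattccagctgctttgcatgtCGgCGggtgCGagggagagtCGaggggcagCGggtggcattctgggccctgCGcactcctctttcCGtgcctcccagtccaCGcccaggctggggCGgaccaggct
Rgs14 (chr17:9268184-9268483, - strand): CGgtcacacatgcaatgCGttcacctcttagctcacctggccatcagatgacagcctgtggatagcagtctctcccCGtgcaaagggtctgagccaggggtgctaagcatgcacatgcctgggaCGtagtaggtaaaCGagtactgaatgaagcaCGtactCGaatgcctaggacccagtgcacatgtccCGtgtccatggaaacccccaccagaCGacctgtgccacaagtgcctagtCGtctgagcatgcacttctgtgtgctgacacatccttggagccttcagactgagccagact
Gng7 (chr7:9365139-9365438, + strand): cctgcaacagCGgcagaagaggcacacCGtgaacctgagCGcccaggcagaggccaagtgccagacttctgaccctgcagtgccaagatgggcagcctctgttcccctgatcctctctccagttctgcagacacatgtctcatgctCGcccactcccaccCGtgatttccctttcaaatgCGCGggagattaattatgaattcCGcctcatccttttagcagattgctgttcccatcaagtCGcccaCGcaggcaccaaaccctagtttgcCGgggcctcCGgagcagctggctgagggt
These windows held 18 CpG in Gnas, 24 in Rgs9, 10 in Rgs14 and 12 in Gng7. RefSeq listed 3 starts for Gnas, and the first along the strand is shown, which need not be that of the stimulatory alpha subunit. Of the 49 members, 40 matched a promoter, with a median GC content of 61.5% against 52.3% over 27457 promoters. The GC box GGGCGG was found on either strand in 22 of the 40 (55.0%) against 34.9% of all promoters, and the TATA box TATAAA in 6 (15.0%) against 14.3%. All promoters here include those of genes not detected in these tissues, and no background of detected genes was taken. The Gnas window held 1 TATA box and 1 GC box, the Rgs9 window 2 GC boxes and no TATA box, and those of Rgs14 and Gng7 neither.

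Deposited FPKM summed to between 370020 and 391349 in hippocampus libraries and to between 443335 and 471484 in hypothalamus libraries. Marker lists, chosen with earlier results of these data known, followed the tissue labels. The 6 hippocampal neuron markers summed to 971 to 1372 FPKM in hippocampus, led by Slc17a7 (571 to 847), and to 45.1 to 57.9 in hypothalamus. The 8 hypothalamic peptide genes summed to 11.0 to 14.7 against 6038 to 8653. Choroid plexus markers varied within hippocampus, from 35.5 FPKM in replicate 2 to 5951 in replicate 3. For tissue comparisons each library was rescaled to the same sum over shared symbols, and differences are on the scale log2(rescaled value + 1), hippocampus minus hypothalamus, with the SD over replicates pooled over the tissues (n = 4 and 3). A member was called higher in 1 tissue where its libraries did not overlap with those of the other and the difference reached 2-fold. No test was run across the tables, because they may have been normalized separately: tissue and table cannot be told apart. In bulk tissue, fewer cells of a type and less RNA per cell cannot be told apart either.

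Of the 49 members, 48 had an acceptable quantification status and 40 of these reached a mean of 1 FPKM in a tissue. The libraries of both tissues did not overlap for 21 of the 40 (52.5%), against 52.6% of all 10736 symbols compared. Calls were 8 higher in hippocampus (20%, against 14.5% of all symbols) and 6 higher in hypothalamus (15.0%, against 13.4%). The median difference was -0.02 for members and 0.05 for all symbols, and the median size of the difference regardless of sign was 0.89 against 0.63. The members were thus separated between the tissues about as often as genes at large. The split of calls moved with scaling: with FPKM as deposited it was 6 and 9 (against 8.64% and 16.9% of all symbols), with upper quartile scaling 7 and 8 (against 12.1% and 15.9%), and the median of all symbols shifted to -0.21 and -0.08.

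**Figure D1:**
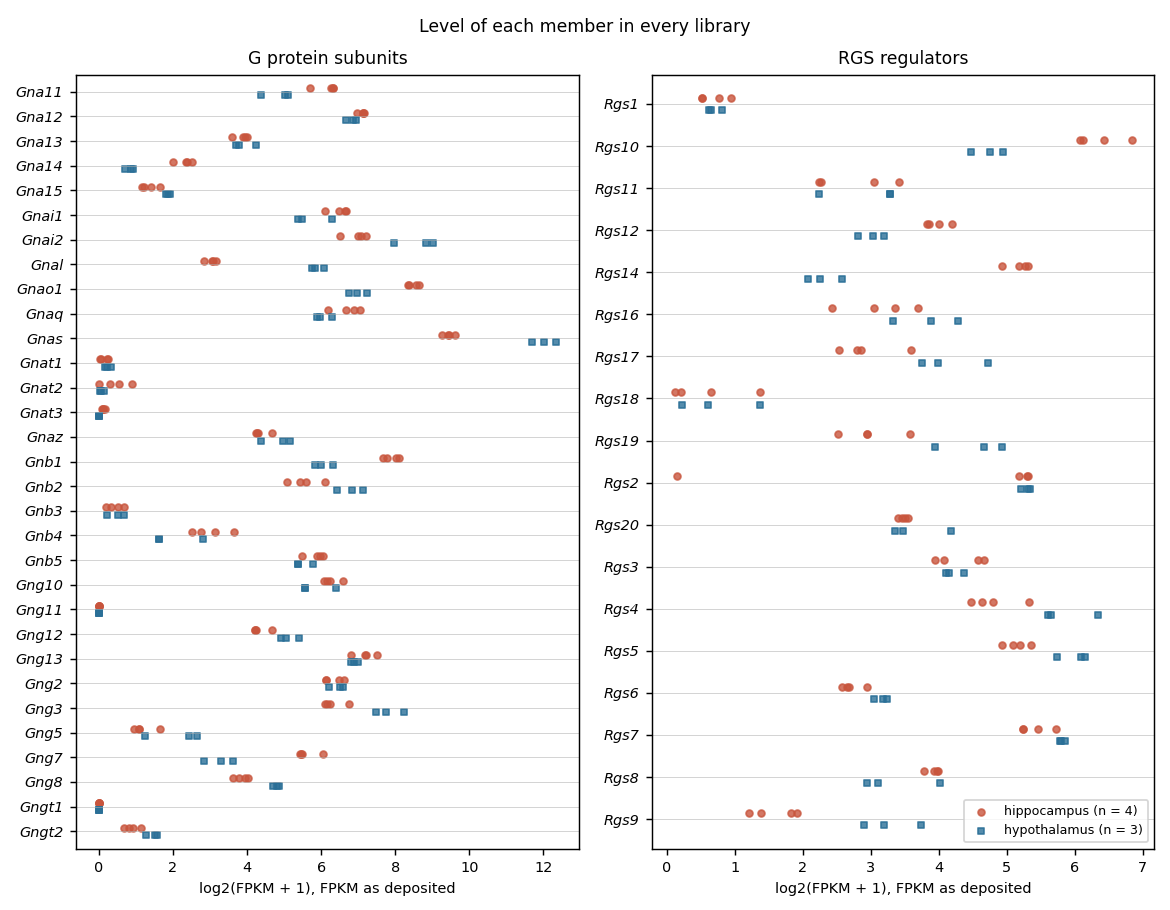
Deposited FPKM of each of the 49 members in every library, on the log2(FPKM + 1) axis, with circles for the 4 hippocampus and squares for the 3 hypothalamus libraries. Gnas is the member farthest to the right in both tissues, Gng11 and Gngt1 lie at 0, and 1 hippocampus library of Rgs2 lies far below the other 3.

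Both members of the s class were called higher in hypothalamus (against 13.4% of all symbols). Gnas, which encodes the stimulatory alpha subunit coupled to adenylyl cyclase, had 781, 680.4, 706 and 612 FPKM in hippocampus replicates 1 to 4 and 3331, 4174 and 5164 in hypothalamus replicates 1 to 3 (loci XLOC_018070 and XLOC_017164 of the respective tables). Every hypothalamus library was above every hippocampus library, with a difference of -2.29 ± 0.21 (pooled SD) and a 4.88-fold higher level in hypothalamus. Other starts of the imprinted Gnas locus give transcripts that share its downstream exons, and the tables give all of it under a single symbol. Gnal encodes the olfactory and striatal relative of the same subunit. Its values were 7.94, 7.27, 7.48 and 6.11 FPKM in hippocampus and 66.8, 52.5 and 55.9 in hypothalamus, a difference of -2.66 ± 0.18 with no overlap.

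Markers of neighbouring structures were read beside these genes. The 7 striatal projection neuron markers, from a region where Gnal, Gng7 and Rgs9 are known to be abundant, summed to 81.7 to 87.7 FPKM in hippocampus and 252 to 333 in hypothalamus. Of them, 2 (Drd2 and Penk) lay higher in hypothalamus, 2 (Drd1 and Pde10a) higher in hippocampus, and none was at 0 in all libraries. Penk, which hypothalamic neurons also express, held 189 to 217 FPKM of the hypothalamus sum. The 5 pituitary markers summed to 0.192 to 5.19 FPKM in hippocampus and 168 to 439 in hypothalamus. The hypothalamus sum was led by Cga (70.4 to 282 FPKM) and Pomc (94.0 to 141), also a hypothalamic gene. Tshb had 3.64 to 15.2 FPKM there, Gh1 at most 0.237, and Prl was at 0 in all libraries. The part of these cells in the differences of Gnas and Gnal was not tested.

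The i/o class split. Gnai2, a widely expressed inhibitory subunit, had 126, 133, 147 and 89.6 FPKM in hippocampus and 249.9, 454 and 520.1 in hypothalamus, a difference of -1.37 ± 0.42. Gnai1, the related subunit that is prominent in neurons, had 68.0, 101, 88.9 and 98.1 FPKM in hippocampus and 77.1, 40.2 and 43.9 in hypothalamus. Deposited values of Gnai1 overlapped through hypothalamus replicate 1, and it was called higher in hippocampus, by 1.07 ± 0.38, after rescaling. This call was lost with FPKM as deposited, with upper quartile scaling, with loci summed, and without hypothalamus replicate 2 or 3. Within a library, the ratio of Gnai2 to Gnai1 needs no scaling between tables, and it was 1.86, 1.31, 1.65 and 0.914 in hippocampus against 3.24, 11.3 and 11.8 in hypothalamus, with no overlap.

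Gnao1 encodes the o-type alpha subunit, known as an abundant G protein of brain membranes. Its values were 331, 396, 374 and 324 FPKM in hippocampus and 107, 123 and 149 in hypothalamus. Hippocampus replicate 1 carried a failed quantification status at both Gnao1 loci of that table, so Gnao1 entered no count of calls. With loci of any status kept it was higher in hippocampus by 1.78 ± 0.16 with no overlap. Gnaz, a relative insensitive to pertussis toxin, overlapped between the tissues (18.0 to 24.4 against 19.9 to 34.5 FPKM). The transducins of rods and cones, Gnat1 and Gnat2, and the gustducin gene Gnat3 stayed below 1 FPKM in all 7 libraries.

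In the q class, 3 of 4 members lay higher in hippocampus without overlap (against 28.2% of all symbols), and 2 were called (against 14.5%). Gna11 had 79.5, 79.0, 75.5 and 51.4 FPKM in hippocampus and 19.8, 31.4 and 33.4 in hypothalamus, a difference of 1.64 ± 0.34. Gna14, of narrower expression, had 4.69, 4.13, 4.17 and 3.01 FPKM against 0.822, 0.639 and 0.887, a difference of 2.13 ± 0.22. At these low levels the Gna14 difference moved with the scale, to 1.27 with a pseudocount of 5, 1.48 with FPKM as deposited and 2.58 with a pseudocount of 0.1. Gnaq, the member with the highest mean of its class in both tissues, had 71.2, 118, 101 and 131 FPKM against 76.7, 61.8 and 58.5. Its rescaled values did not overlap, but the difference of 0.95 ± 0.32 stayed short of 2-fold. Gna15, known mainly from blood cells, lay between 1.24 and 2.76 FPKM in all libraries, and its rescaled values overlapped. In the RefSeq gene order Gnaq lies 1 gene from Gna14, with Gnaq and Gna14 both higher in hippocampus, while Gna11 and its direct neighbour Gna15 had differences of 1.64 and -0.38.

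The 12 class, which acts on the cytoskeleton, had no called member (against 14.5% of all symbols towards hippocampus and 13.4% towards hypothalamus). Gna12 was the member with the highest mean of the class in both tissues, with 138, 142, 123 and 138 FPKM in hippocampus and 102, 116 and 123 in hypothalamus. Its libraries did not overlap, and the difference was 0.55 ± 0.09. Gna13 had 11.1 to 15.1 FPKM in hippocampus and 11.9 to 17.8 in hypothalamus, with overlap.

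**Figure D2:**
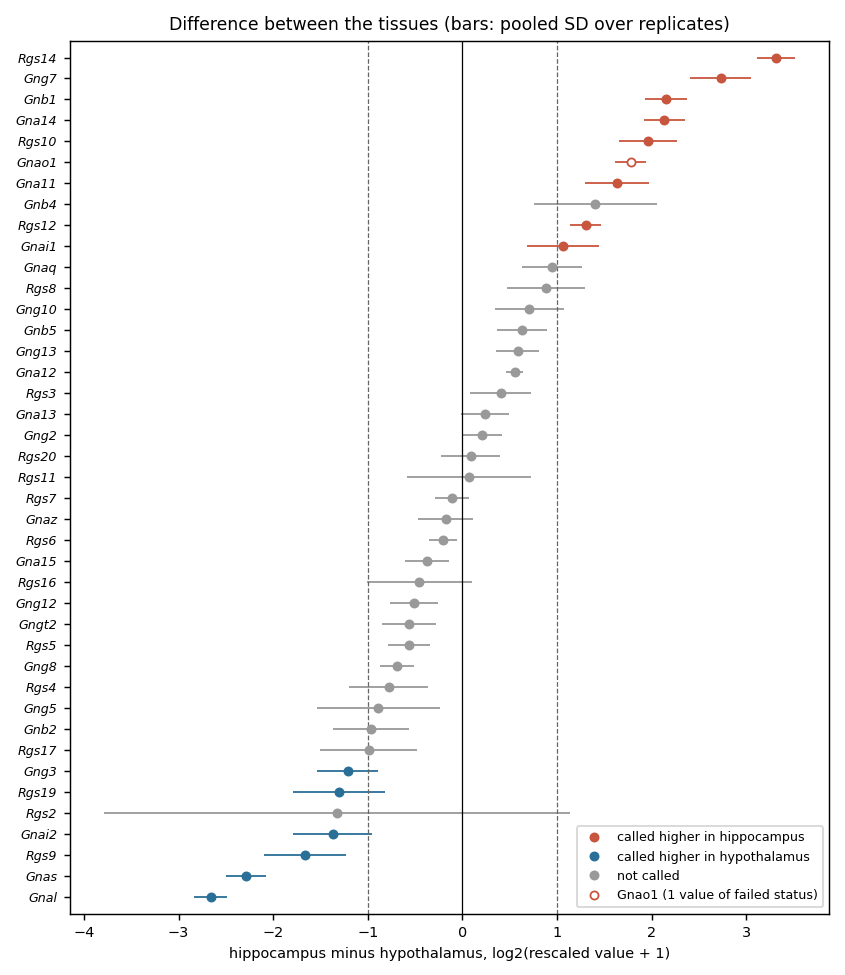
Difference between the tissues, hippocampus minus hypothalamus on the log2(rescaled value + 1) axis, for the 40 members compared and Gnao1 (open circle), with bars for the SD over replicates pooled over the tissues and dashed lines at 2-fold. The 8 members called higher in hippocampus run from Gnai1 at 1.07 to Rgs14 at 3.31, and the 6 called higher in hypothalamus from Gng3 at -1.21 to Gnal at -2.66.

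Among beta subunits the leading gene differed between the tissues. Gnb1 had 201, 258, 217 and 275 FPKM in hippocampus and 78.3, 55.5 and 62.4 in hypothalamus, a difference of 2.16 ± 0.22 with no overlap. Gnb2 had 68.2, 42.2, 47.0 and 32.8 FPKM in hippocampus and 85.1, 113 and 140.3 in hypothalamus. Its libraries did not overlap either, and the difference of -0.96 ± 0.40 stayed short of 2-fold after rescaling. Gnb2 was called higher in hypothalamus with FPKM as deposited, with upper quartile scaling, and without replicate 1 of hippocampus, of hypothalamus or of both. The ratio of Gnb1 to Gnb2 within a library was 2.95, 6.11, 4.62 and 8.36 in hippocampus and 0.921, 0.490 and 0.445 in hypothalamus. With loci summed the hippocampus ratios were 2.99, 9.34, 5.35 and 14.5, and those of hypothalamus the same.

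Gnb5, the atypical beta subunit that pairs with RGS proteins of the R7 class, had 43.3 to 64.8 FPKM in hippocampus and 40.4 to 54.1 in hypothalamus, with overlap. Gnb4 was low, at 4.74 to 11.5 against 2.05 to 5.98 FPKM, and overlapped through hypothalamus replicate 1. Gnb3, of photoreceptors and other sensory cells, stayed below 1 FPKM.

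Of 9 gamma subunits compared, 1 was called in each direction (11.1% each). Of all symbols, 14.5% were called towards hippocampus and 13.4% towards hypothalamus. Gng7, known as the gamma subunit that pairs with the Gnal product in striatum, had 42.3, 64.9, 44.0 and 42.6 FPKM in hippocampus and 6.11, 8.77 and 11.2 in hypothalamus. All hippocampus libraries were above all hypothalamus libraries, and the difference was 2.73 ± 0.32. Gng7 and Gnal were therefore called in opposite directions, and the ratio of Gng7 to Gnal within a library was 5.33, 8.92, 5.88 and 6.97 in hippocampus against 0.0914, 0.167 and 0.201 in hypothalamus. Gng3, a gamma subunit of neurons, had 107, 68.2, 71.0 and 73.9 FPKM in hippocampus and 178, 213 and 299 in hypothalamus, a difference of -1.21 ± 0.32 with no overlap.

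Gng13, a gamma subunit also known from taste cells, had the highest mean of the gamma subunits in hippocampus. Its values were 148, 144, 111 and 182 FPKM, beside 126, 110.4 and 118 in hypothalamus. Deposited values overlapped, rescaled values did not, and the difference was 0.58 ± 0.23. Gng8 was higher in hypothalamus without overlap (11.2 to 15.2 against 25.1 to 28.1 FPKM) by less than 2-fold. Gng2, Gng5, Gng10, Gng12 and Gngt2 overlapped after rescaling. Gng11 and the rod subunit gene Gngt1, which are neighbours in the genome, were listed at 0 in all 7 libraries.

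Shares within a family do not depend on how a table was scaled. Gnas made up 47.4%, 40.2%, 42.4% and 41.1% of the summed alpha FPKM in hippocampus and 81.8%, 81.9% and 83.3% in hypothalamus. Alpha subunits, Gnao1 included, summed to 1622.5 ± 91.9 FPKM in hippocampus (SD, n = 4) and 5123 ± 1064 in hypothalamus (SD, n = 3). Without Gnas they summed to 928 ± 70.3 and 899.9 ± 148. Gnao1 held 21.9% ± 1.4 of the alpha sum in hippocampus and 2.49% ± 0.13 in hypothalamus, its status as above, and Gnai2 7.60% and 7.81%, with overlap. With Gnas so large in hypothalamus, 10 of 15 alpha subunits had a higher share in hippocampus without overlap and 2 in hypothalamus. With Gnao1 left out the counts were 9 of 14 and 2, and with loci summed 9 of 15 and 2.

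Gnb1 held 67.7% ± 6.9 of the beta sum in hippocampus and 28.9% ± 5.3 in hypothalamus, and Gnb2 13.7% ± 4.8 and 49.5% ± 10.2. In the gamma family Gng13 led in hippocampus with 31.0% ± 2.7 and Gng3 in hypothalamus with 40.1% ± 7.2. With loci summed, Gng13 kept the higher hippocampus mean (28.5% against 24.3% for Gng2). Gng2 then exceeded it in replicate 2 (29.4% against 26.5%) and replicate 3 (28.9% against 24.1%). Beta subunits summed to 350 ± 19.4 FPKM in hippocampus and 227 ± 17.1 in hypothalamus, and gamma subunits to 467 ± 54.2 and 568 ± 57.0. RGS regulators summed to 347 ± 30.4 and 372 ± 25.1 FPKM with 1 locus per symbol, and to 402 ± 41.0 and 392 ± 10.7 with loci summed. These sums are of deposited FPKM from separate tables. As a percentage of all FPKM in a library, gamma subunits overlapped (0.106% to 0.136% in hippocampus against 0.117% to 0.134% in hypothalamus), as did RGS regulators (0.0819% to 0.0970% against 0.0748% to 0.0902%). With loci summed, RGS regulators did not overlap on that scale (0.0930% to 0.112% in hippocampus against 0.0811% to 0.0910%). As such percentages, with 1 locus per symbol, beta subunits stayed higher in hippocampus (0.0881% to 0.0944% against 0.0468% to 0.0521%). Alpha subunits stayed higher in hypothalamus (0.383% to 0.446% against 0.918% to 1.31%). Alpha subunits without Gnas were higher in hippocampus (0.226% to 0.259% against 0.167% to 0.219%). That direction was lost with Gnao1, of failed status in hippocampus replicate 1, left out as well: the tissues then overlapped.

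**Figure D3:**
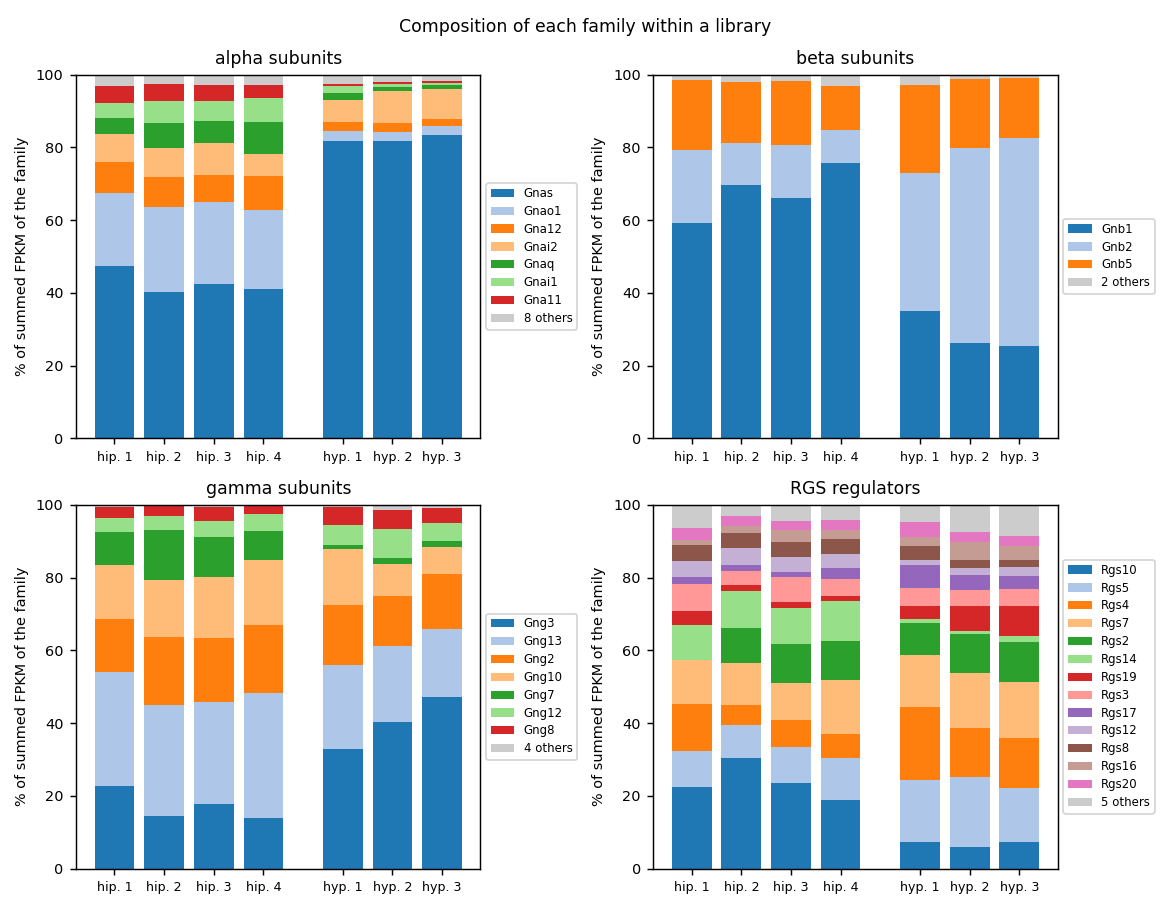
Share of each gene in the summed FPKM of its family within each of the 7 libraries, in percent (stacked bars, members of small share joined as others). Gnas fills over 80% of the alpha sum in each hypothalamus library, and Gnb1 leads the beta sum in each hippocampus library while Gnb2 leads it in each hypothalamus library.

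All 3 RGS members of the R12 class were called higher in hippocampus (against 14.5% of all symbols). Rgs14, a scaffold known from pyramidal neurons of hippocampal area CA2, had 29.5, 37.4, 35.2 and 38.7 FPKM in hippocampus and 3.80, 3.23 and 4.99 in hypothalamus. The tissues lay far apart, with a difference of 3.31 ± 0.20, and Rgs14 had the largest difference among the members compared. Rgs10, a short RGS protein of microglia and neurons, had 68.4, 113, 85.2 and 66.6 FPKM against 29.8, 21.2 and 25.9, a difference of 1.96 ± 0.30. The 5 microglia markers summed to 115 to 157 FPKM in hippocampus and 176 to 181 in hypothalamus as deposited, and overlapped after rescaling (329 to 455 against 397 to 430). Of them Cx3cr1 was separate towards hippocampus, Csf1r and P2ry12 towards hypothalamus, and none was at 0, and their part in the Rgs10 difference was not tested. Rgs12, a large multidomain member, had 13.2, 17.3, 15.1 and 13.5 FPKM against 6.01, 7.16 and 8.21, a difference of 1.30 ± 0.17. Rgs12 fell just short of 2-fold with FPKM as deposited, at 0.96.

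Within the summed RGS level of a library, Rgs10 and Rgs14 also took a larger share in hippocampus. Rgs10 made up 23.9% ± 4.8 of the RGS sum in hippocampus and 6.88% ± 0.90 in hypothalamus, and Rgs14 10.1% ± 0.59 and 1.09% ± 0.29.

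In the R7 class, whose members pair with Gnb5, 1 of 4 was called, towards hypothalamus (against 13.4% of all symbols). Rgs9, known from striatum and photoreceptors, had 2.56, 1.61, 2.78 and 1.32 FPKM in hippocampus and 6.47, 8.12 and 12.3 in hypothalamus, a difference of -1.67 ± 0.44 with no overlap. The striatal markers given above also lay higher in hypothalamus in sum, led by Penk, and their part in the Rgs9 difference was not tested. Rgs7, the class member with the highest mean in both tissues, had 36.7, 42.9, 36.9 and 51.6 FPKM in hippocampus and 56.8, 54.6 and 54.3 in hypothalamus. Deposited Rgs7 values did not overlap, but after rescaling they did, and the difference was -0.11 ± 0.18. Rgs6 and Rgs11 overlapped after rescaling, at 4.96 to 8.44 and 3.70 to 9.69 FPKM over all libraries.

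In the RZ class Rgs19, also called GAIP, had 11.0, 6.74, 6.70 and 4.75 FPKM in hippocampus and 14.4, 24.5 and 29.6 in hypothalamus, a difference of -1.31 ± 0.49 with no overlap. Rgs20 was the class member with the highest mean in hippocampus, at 10.4, 10.7, 9.60 and 9.97 FPKM, beside 17.2, 9.30 and 10.1 in hypothalamus, with overlap. Rgs17 overlapped after rescaling with a difference of -0.99 ± 0.51. It was called higher in hypothalamus with FPKM as deposited, with upper quartile scaling, and without hippocampus replicate 4 or hypothalamus replicate 3.

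None of the 6 R4 members compared was called (against 14.5% of all symbols towards hippocampus and 13.4% towards hypothalamus). Rgs5, a known gene of pericytes, was the class member with the highest mean in both tissues with 1 locus per symbol. With loci summed, Rgs4 and Rgs2 exceeded it in hippocampus (13.5% and 12.8% of the RGS sum against 8.61%). Rgs5 had 29.5, 33.2, 35.5 and 40.2 FPKM in hippocampus and 67.4, 69.8 and 52.5 in hypothalamus. The libraries did not overlap, and the difference was -0.56 ± 0.22. The 6 pericyte and smooth muscle markers found summed to 45.5 to 999.7 FPKM in hippocampus and 84.9 to 588 in hypothalamus, a range led by Acta2 and Tagln, and 3 (Notch3, Kcnj8 and Abcc9) lay higher in hypothalamus. Their part in the Rgs5 difference was not tested. Rgs4, a regulator of cortical neurons and the direct neighbour of Rgs5 in the genome, had 21.2 to 39.2 FPKM in hippocampus and 47.8 to 80.4 in hypothalamus, separate as deposited and overlapping after rescaling. It was called higher in hypothalamus with FPKM as deposited, while with loci summed its rescaled difference was 0.15 ± 0.42. Rgs8 was separate after rescaling, by 0.88 ± 0.41 towards hippocampus with 1 locus per symbol, but with loci summed its difference was -0.17 ± 0.17 with overlap. Rgs3 and Rgs16 overlapped, and Rgs1 and Rgs18, of blood cells, had means below 1 FPKM.

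Rgs2, an activity-induced regulator that prefers the q class, was the single member whose SD over replicates exceeded 1 on the log2(FPKM + 1) scale. It had 0.111, 35.3, 38.8 and 38.5 FPKM in hippocampus and 36.0, 38.8 and 39.6 in hypothalamus. Hippocampus replicate 1 was near 0 while the other 6 libraries lay between 35.3 and 39.6 FPKM. A second locus of the same symbol had 34.3, 17.8, 19.7 and 23.8 FPKM, so replicate 1 was not low there. The difference of Rgs2 was -1.32 ± 2.46 with the locus of the highest mean, 0.67 with loci summed and 0.27 without hippocampus replicate 1. The 9 immediate early genes found, markers of recent activity, summed to 222 FPKM in hippocampus replicate 1 and to 105 to 137 in replicates 2 to 4, and their relation to Rgs2 was not tested. The median SD was 0.25 for 39 members, Rgs2 included, against 0.24 for all loci in hippocampus, and 0.29 against 0.25 in hypothalamus.

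Splitting of a symbol over loci touched 17 members in at least 1 table, and 32 had a single locus in both. For Gnb1 the second hippocampus locus had 2.50, 136, 34.3 and 201 FPKM, for Gnas 0, 224, 0.737 and 522, and for Gng2 6.80, 71.0, 63.7 and 32.2. In these 3 genes and in Rgs4 (2.27, 31.0, 18.9 and 56.3 FPKM) replicate 1 had the lowest value at the second locus, while in Rgs2 it had the highest. Of 10 members whose second hippocampus locus was above 0, replicate 1 was lowest there in 6 and highest in 4. In hypothalamus the second locus of Rgs8 had 0, 13.2 and 15.5 FPKM. With loci summed, calls were 7 towards hippocampus (all symbols: 14.5%) and 6 towards hypothalamus (all symbols: 14.1%), with Gnai1 the call lost. Gnas and Gnb1 remained called in the same direction. The sign of the difference turned for 6 of the 40 members compared (Rgs2, Rgs3, Rgs4, Rgs6, Rgs8 and Rgs20), none of them called under either choice. With loci summed, Gng2 (0.76), Rgs2 (0.67) and Rgs6 (0.36) became separate towards hippocampus and Gng12 (-0.55) towards hypothalamus, and Rgs8 came to overlap. The share of Rgs8 in the RGS sum was 4.08% in hippocampus and 2.60% in hypothalamus with 1 locus per symbol, and 3.53% and 4.97% with loci summed, without overlap in either case. The share of Rgs4 was 8.20% and 15.7% without overlap, and 13.5% and 15.0% with overlap once loci were summed.

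**Figure D4:**
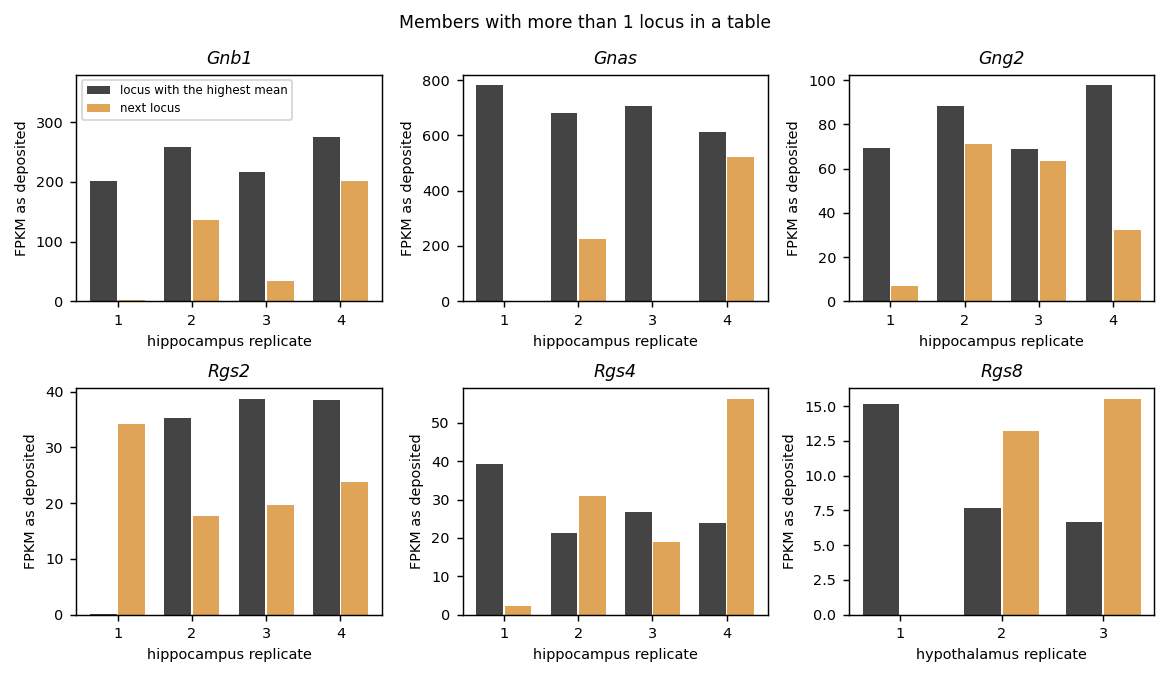
FPKM as deposited at the locus with the highest mean (dark) and at the next locus (orange) of the same symbol, by replicate, for 5 members in hippocampus and Rgs8 in hypothalamus. The second locus is near 0 in hippocampus replicate 1 for Gnb1, Gnas and Rgs4, whereas for Rgs2 it is the first locus that is near 0 there.

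Partners of the G proteins were counted in the same way, from a list of 34 genes of which 31 were found and 28 compared. Libraries were separate for 16 of the 28 (57.1%, against 52.6% of all symbols), with 9 called higher in hippocampus (against 14.5% of all symbols) and 4 higher in hypothalamus (against 13.4%), and the median difference was 0.44. All 4 listed subunits of the G protein-gated potassium channels, which open on binding beta-gamma dimers, were called higher in hippocampus. Kcnj5 had 40.0, 41.0, 39.2 and 33.8 FPKM in hippocampus and 2.40, 3.22 and 2.99 in hypothalamus, a difference of 3.86. For Kcnj3 the difference was 1.90, for Kcnj6 1.34 and for Kcnj9 1.16, and the deposited values of all 4 did not overlap. Kcnj9 was not called with FPKM as deposited (0.83) or with loci summed.

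The phospholipases C-beta, effectors of the q class, went both ways. Plcb1 was higher in hippocampus (31.3, 37.4, 32.9 and 66.5 FPKM against 18.2, 12.6 and 13.1, a difference of 1.74) and Plcb4 higher in hypothalamus (3.15, 3.31, 3.97 and 2.93 against 15.4, 10.1 and 8.14, a difference of -1.32). The exchange factors downstream of the 12 class likewise split, with Arhgef12 called higher in hippocampus (1.07) and Arhgef11 higher in hypothalamus (-1.40). Deposited values of Arhgef12 overlapped, with a difference of 0.74, and its call was also lost with a pseudocount of 5, with upper quartile scaling, and without hippocampus replicate 4 or hypothalamus replicate 2 or 3. Among partners of R7 proteins, the membrane anchor Rgs7bp (1.67) and the orphan receptor Gpr158 (1.12) were called higher in hippocampus, while Rgs7 and Gnb5 themselves overlapped. The Gpr158 call was lost with FPKM as deposited (0.80), with upper quartile scaling, with loci summed and without hypothalamus replicate 3. The inhibitors of GDP release Gpsm1 (-1.46) and Gpsm3 (-1.95) were called higher in hypothalamus, and the small GTPase Rasd1 (1.53) higher in hippocampus, while their relatives Gpsm2 (0.16) and Rasd2 (-0.02) overlapped. The alpha subunit chaperones Ric8a and Ric8b differed by 0.06 and 0.13 with overlap. None of the receptor kinases and arrestins (Grk2 to Grk6, Arrb1 and Arrb2) was called, with the kinases Grk2 and Grk3 separate at 0.83 and 0.61.

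**Figure D5:**
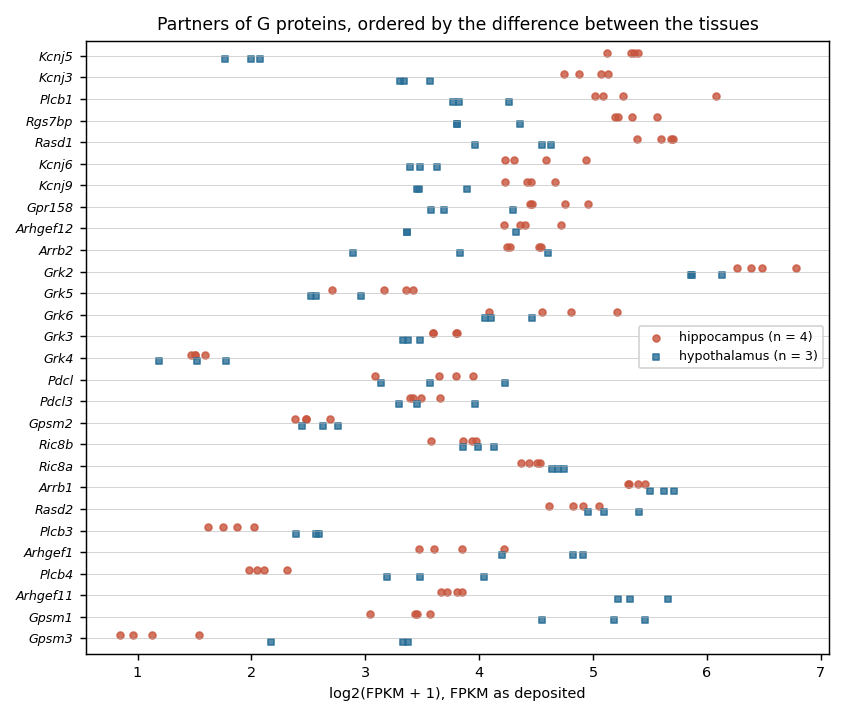
Deposited FPKM of the 28 partner genes compared, in every library, on the log2(FPKM + 1) axis and ordered by the difference between the tissues, with circles for hippocampus and squares for hypothalamus. Kcnj5 at the top lies at 33.8 to 41.0 FPKM in hippocampus and 2.40 to 3.22 in hypothalamus, and Gpsm3 at the bottom lies higher in hypothalamus.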

How the data were processed

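Poly-A RNA was made into libraries by random priming and read on a HiSeq 2000, per the labels' protocols. The authors deposited FPKM, in a separate table for each tissue. The submitters' processing notes name TopHat, TopHat2, Bowtie, Bowtie2, Cufflinks, Cuffdiff and build rn5. The annotation, strand setting and normalization across tables are not given in the sources used here, and overlapping genes cannot be told apart. Each row is a locus with a symbol and a status per library, per the file headers. Loci of a status other than OK were left out of the tissue comparisons, while family sums, shares and ratios within a library kept them. A symbol with several loci was represented by that of highest mean, and libraries were brought to a common total of 1000000 over 15805 symbols. Values were compared as log2(value + 1), which understates changes of low genes, over symbols whose mean reached 1 FPKM in either tissue. Called means no overlap and at least 2-fold. The planned design held no test. Values in every library are given for called members, for the member with the highest mean of each class, and for members of at least 5 FPKM with an SD above 1; other values were chosen after they were seen. Planned protein sequences were not shown. Calculations used Python 3.11.15, pandas 2.3.3 and numpy 2.4.6. The members and lists were chosen with earlier results of these data known. Alternatives were other pseudocounts (0.1 and 5), filters, scalings, loci summed and libraries left out. Lists of meninges, endothelium, astrocyte, oligodendrocyte and thalamus markers were summed too, and gave 31.3 to 262, 85.8 to 129, 603 to 747, 3497 to 4301 and 32.1 to 48.8 FPKM in hippocampus against 73.1 to 406, 52.1 to 77.1, 939.8 to 1321.5, 5512 to 7223 and 27.1 to 67.0 in hypothalamus. Choroid plexus markers summed to 14.7 to 53.5 FPKM in hypothalamus.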

Additional observations from a re-analysis of the deposited data

Results flagged for a closer look

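In hippocampus, 1 of the 4 libraries stood apart from the other 3 for 6 of 39 members (15.4%). Over all 10033 symbols whose hippocampus mean reached 1 FPKM the share was 7.22%, and chance alone gives about 1 in 20. The measure is the gap to the nearest library as a fraction of the whole range, held against Dixon's 95% critical value for 4 samples. Gna11 had 1 low library (0.856, replicate 4 at 51.4 FPKM). Rgs2 had 1 low library (0.909, replicate 1 at 0.111 FPKM), which had a higher value at the second locus of that symbol. The highest library stood apart for Gnaz (0.885, replicate 1 at 24.4 FPKM), Gng12 (0.943, replicate 4 at 24.6 FPKM), Gng3 (0.850, replicate 1 at 107 FPKM) and Gng7 (0.928, replicate 2 at 64.9 FPKM). Gna11, Gng3 and Gng7 were called in every alternative run, including those that left these libraries out.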

How the results depend on the processing

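Over 18 alternatives, 11 of the 14 calls were kept in all; the exceptions were Gnai1 (13 of 18, difference 0.76 to 1.49), Gna14 (17, lost at a minimum of 5 FPKM) and Rgs12 (17, lost with FPKM as deposited). Calls numbered 6 to 12 in hippocampus and 6 to 9 in hypothalamus. The count of 12 came without hypothalamus replicate 1 (against 16.9% of all symbols, adding Gnaq, Gnb4, Gng10 and Rgs8), with 8 in hypothalamus (against 15.2%, adding Gnb2 and Gng5), and without replicate 1 of both tissues (12 and 8, against 18.1% and 15.9%). No called difference changed sign. Of 395 difference values 29 moved by more than 1 SD. These values cover 22 members only: those called, those with the highest mean of a class, and Rgs2. With loci summed, Rgs2 turned its sign without counting as moved, because its SD was 2.46. Keeping loci of any status (9 and 6, against 14.3% and 13.6% of all symbols) and summing loci without replicate 1 of both tissues (11 and 8, against 17.8% and 16.7%, with Gnb1 at 2.88) were chosen after seeing the data, as were the runs for partners, whose calls numbered 6 to 9 in hippocampus and 4 to 5 in hypothalamus. No paired analysis was possible because the labels do not say whether same-numbered libraries of both tissues share a rat, and the comparisons hold no test. FPKM carry no depth, so low members such as Gna14 and Gng5 have no counting error attached.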
